A study of Mus musculus with 6 samples.

Results

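Fatty acid oxidation genes were followed in the epididymal fat pad of mice that carry 1 ldi allele of Pparg. They were taken as a list of 28 named enzymes, transporters and electron carriers plus every gene whose symbol starts with Pex and a digit. Of these, 41 could be read on the array, out of 18193 genes in all: 18 mitochondrial members, 9 peroxisomal enzymes and transporters, and 14 Pex genes. Cpt1b, the muscle-type carnitine palmitoyltransferase, is not analysed here, because its probe set is annotated with several symbols. A gene was read from its brightest probe set, where cross-hybridising sets (suffix x_at) were used only if the gene had no other.

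Both groups were male mice of 10 weeks on a C57BL6;129Sv background. Pparg ldi/+ mice (n = 3) carried 1 ldi allele, and the labels call them lipodystrophic; the litter-matched controls (n = 3) were wild type at Pparg. The sources used here do not say what the ldi allele alters. RNA of a single mouse went to each Affymetrix MOE430v2.0 array, so precision is limited by having 3 arrays per group.

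In the mitochondrion, long-chain fatty acids enter as carnitine esters and are shortened in a repeated cycle of dehydrogenation, hydration, a further dehydrogenation and thiolysis. Electrons from the first dehydrogenation pass through the electron transfer flavoprotein to the respiratory chain. Peroxisomes run a parallel cycle on very long and branched chains, which starts with an oxidase that makes hydrogen peroxide. White fat mainly stores and releases fatty acids, and PPAR family receptors are known regulators of many of these genes.

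Of the 27 enzymes, transporters and carriers, 5 rose and 10 fell in Pparg ldi/+ fat, and 12 did not pass. Rose and fell mean an adjusted p below 0.05 in limma, fitted on 11201 genes, of which 32.7% were called (16.3% rose and 16.4% fell). Among the 18 mitochondrial members 4 rose and 7 fell, with a median log2 difference of -0.26. Among the 9 peroxisomal ones 1 rose and 3 fell, with a median of -0.06. The median over all tested genes was 0.00. All 41 members passed the filter on dim probe sets, Pex5l only through its Pparg ldi/+ values. The mitochondrial members were spread from -0.55 to 0.96 and the peroxisomal ones from -1.58 to 0.53. The groups did not overlap for 13 of the 18 mitochondrial and 4 of the 9 peroxisomal members, where 47.6% of all tested genes did not overlap.

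**Figure D1:**
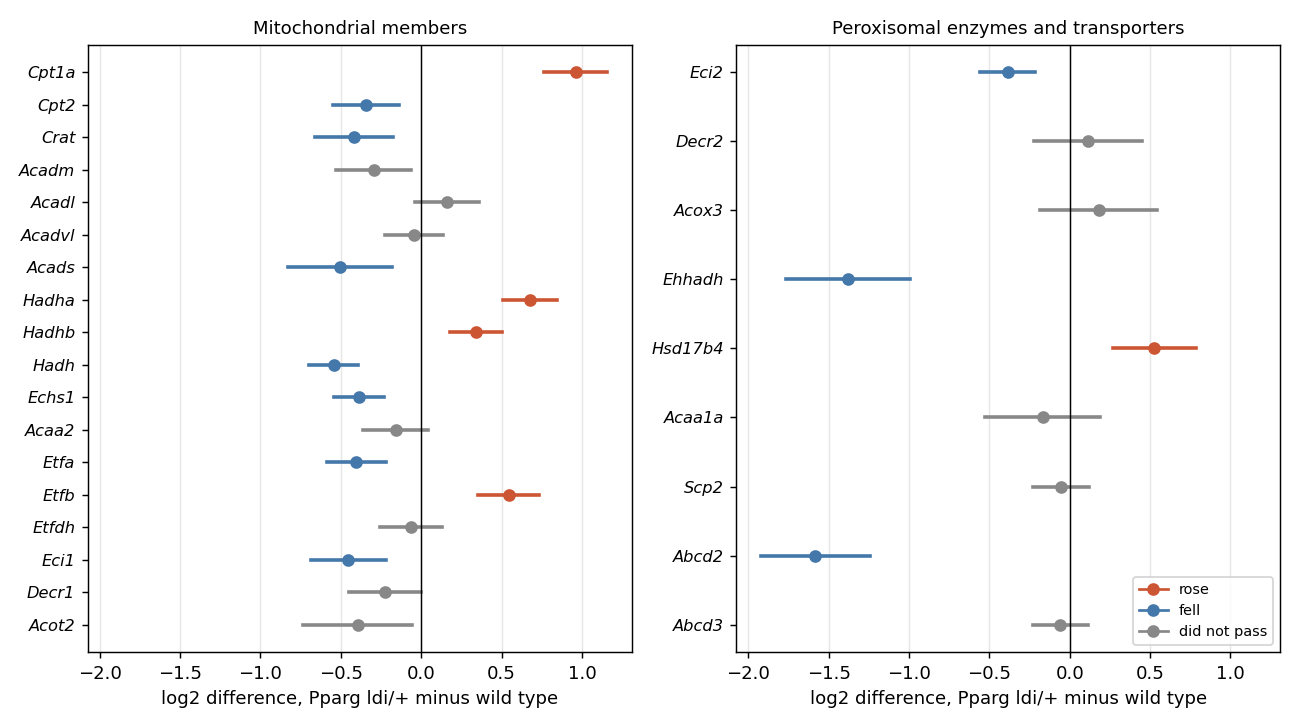
Log2 difference of each mitochondrial member (left) and each peroxisomal enzyme or transporter (right), Pparg ldi/+ minus wild type, with the 95% confidence interval from limma as a line (3 arrays per group). Abcd2 at -1.58 and Ehhadh at -1.38 lie farthest to the left, and Cpt1a at 0.96 farthest to the right.

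Markers of other cell types differed between the groups. All 15 macrophage markers rose (median 1.54), and their summed signal was 129810 to 132343 in Pparg ldi/+ against 46935 to 62467 in wild type. Of 10 adipocyte markers 9 fell (median -1.18), and their sum was 79491 to 88400 against 161557 to 180354. These markers include Pparg, the gene that carries the ldi allele, which fell (log2 -1.35). In bulk tissue, fewer cells of a type and less RNA per cell cannot be told apart. The summed signal of 12 epididymal epithelium markers was 18916 and 26303 in Pparg ldi/+ arrays 1 and 2, 735 in array 3 and 570.0 to 1318 in the controls. Of these markers 6 were tested, 5 of them only through their Pparg ldi/+ values, so no count of calls is given. Of 12 striated muscle markers, 10 were too dim to be tested and neither of the others passed, and the summed signals of the groups overlapped (1256 to 3066 in wild type, 1455 to 2152 in Pparg ldi/+). Of 8 tested thermogenic markers Cox7a1 and Kcnk3 rose, Cidea fell, and Dio2, Cox8b, Prdm16 and Otop1 did not pass. Fabp3 rose too, but its wild-type mean log2 of 7.15 was under the filter. It was tested only through its Pparg ldi/+ values, so no count of calls is given here either. Ucp1, too dim on average to be tested, was at 308, 128 and 120 in Pparg ldi/+ and 10.5, 56.1 and 6.38 in wild type. The part of these differences in the results on the members was not tested.

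The carnitine shuttle did not move as a unit. Cpt1a encodes the outer-membrane enzyme that commits long-chain acyl groups to the mitochondrion. Its scaled signal was 4202, 3845 and 3910 in the 3 Pparg ldi/+ mice and 2180, 2082 and 1841 in the 3 wild-type mice. The lowest Pparg ldi/+ value thus stood well above the highest wild-type value. Cpt1a rose 1.95-fold (log2 0.96, 95% confidence interval 0.77 to 1.16, adjusted p = 7.05e-05). Its cross-hybridising probe sets differed by 0.79 and 1.03. Cpt2 encodes the inner-membrane enzyme that hands the acyl group back to coenzyme A. It was at 2481, 2551 and 2692 in Pparg ldi/+ and at 3582, 3334 and 2943 in wild type, every mutant below every control. It fell 1.27-fold (log2 -0.34, adjusted p = 0.0175). Its cross-hybridising probe set, which was dim, went the other way at 0.20. Crat, the carnitine acetyltransferase, was at 2001, 1863 and 2055 against 2889, 2258 and 2828 and fell 1.34-fold (log2 -0.42, adjusted p = 0.0163). The carrier gene Slc25a20, which exchanges acylcarnitine for carnitine between these enzymes, is not in the list of members; it rose 1.29-fold (adjusted p = 0.0034). The calls of Cpt2 and Crat are close to the threshold. Cpt2 did not pass without Pparg ldi/+ array 1 (-0.32) or 2 (-0.34) or wild-type array 1 (-0.28), nor with unscaled values (-0.29). Crat did not pass without Pparg ldi/+ array 2 (-0.38) or wild-type array 1 (-0.35), nor with unscaled values (-0.36). It did not pass either when its probe sets were averaged (-0.11). That average is over its sets at -0.42 and 0.20; a cross-hybridising set at -0.84 is not in it.

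The acyl-CoA dehydrogenases start each turn of the cycle, and each prefers a range of chain lengths. Acads, for short chains, was at 1574, 1845 and 1270 in Pparg ldi/+ and at 2131, 2505 and 2007 in wild type, with no overlap. It fell 1.42-fold (log2 -0.50, adjusted p = 0.0249). That call was lost without Pparg ldi/+ array 1 (-0.52) or 3 (-0.37), or without wild-type array 1 (-0.53) or 2 (-0.41). Acadm, for medium chains, was at 11346, 11040 and 10380 against 15685, 11826 and 12941. The groups were apart but Acadm did not pass (log2 -0.29, adjusted p = 0.0568). It did pass without wild-type array 2 (-0.38), with quantile normalisation (-0.32) and with array weights (-0.33). Acadl and Acadvl, for long and very long chains, had log2 differences of 0.16 (interval -0.04 to 0.36) and -0.05 (interval -0.22 to 0.13) that did not pass.

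The flavoprotein that takes electrons from these dehydrogenases has 2 subunits, whose transcripts went opposite ways. Etfb, the beta subunit, was at 12614, 13150 and 13063 in Pparg ldi/+ and at 8016, 9930 and 8734 in wild type. It rose 1.46-fold (log2 0.55, interval 0.35 to 0.74, adjusted p = 0.00136). Etfa, the alpha subunit, was at 6824, 6748 and 6536 against 9855, 8673 and 8171. All 3 mutant values were below the lowest control, and Etfa fell 1.32-fold (log2 -0.40, interval -0.59 to -0.22, adjusted p = 0.00514). Etfdh, the oxidoreductase that passes the electrons to ubiquinone, overlapped between groups (log2 -0.06, interval -0.26 to 0.13). Etfa and Etfb each had 1 probe set, and Etfdh had a second, dim one at 0.21.

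In the later steps of the cycle, the genes of the enzyme for long chains rose. Of those for shorter chains Hadh and Echs1 fell and Acaa2 did not pass. The mitochondrial trifunctional protein, bound to the inner membrane, carries out the last 3 steps on long chains. Its alpha subunit gene Hadha was at 4970, 5267 and 4815 in Pparg ldi/+ and at 3314, 3036 and 3036 in wild type. Hadha rose by 0.68 on the log2 scale (interval 0.51 to 0.84, adjusted p = 0.0002). The beta subunit gene Hadhb was at 9047, 9294 and 9112 against 7820, 7015 and 6843 and rose 1.27-fold (log2 0.34, interval 0.18 to 0.50, adjusted p = 0.00619). Both subunit genes were thus higher in every mutant than in any control. For Hadhb a cross-hybridising probe set differed by 0.21 and a dim set by -0.05, and Hadhb did not pass when its sets were averaged (0.14).

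Hadha and Hadhb are transcribed away from each other, and in RefSeq (GRCm38.p6) their start sites are 273 bases apart on chromosome 5. The stretch between the starts that both promoter windows hold is printed because the pair of genes that rose together shares it. It is chr5:30155003-30155230, read on the plus strand towards Hadhb, with capitals at its 1 match to GGGCGG, the core of the binding site of SP1 family factors, searched on both strands.
Hadha and Hadhb: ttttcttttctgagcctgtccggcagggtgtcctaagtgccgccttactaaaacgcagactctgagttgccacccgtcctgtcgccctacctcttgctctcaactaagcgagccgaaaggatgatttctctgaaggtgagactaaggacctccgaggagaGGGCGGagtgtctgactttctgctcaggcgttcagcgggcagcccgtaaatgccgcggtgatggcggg
Of windows of the same length before the start sites of 32851 promoters, 32% hold GGGCGG, so the match does not set this stretch apart. A match describes letters and not binding.

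Of 3 soluble enzymes of the same steps 2 fell, Hadh and Echs1, and Acaa2 did not pass. Hadh, the 3-hydroxyacyl-CoA dehydrogenase for medium and short chains, was at 6224, 6526 and 5936 in Pparg ldi/+ and at 9497, 8982 and 8826 in wild type. It fell 1.46-fold (log2 -0.55, interval -0.70 to -0.39, adjusted p = 0.000424), and its 2 cross-hybridising sets differed by -0.57 and -0.41. Echs1, the short-chain enoyl-CoA hydratase, was at 5601, 5952 and 5386 against 7508, 7071 and 7568. It fell 1.31-fold (log2 -0.39, adjusted p = 0.00288), again with every mutant below every control. The thiolase gene Acaa2 did not pass (log2 -0.16), and its 3 probe sets disagreed in sign, at 0.25, -0.16 and -0.29.

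Unsaturated fatty acids need auxiliary enzymes. Eci1, the mitochondrial enoyl-CoA isomerase once called Dci, was at 2915, 2834 and 2268 in Pparg ldi/+ and at 3722, 3660 and 3567 in wild type. It fell 1.37-fold (log2 -0.45, adjusted p = 0.00914). Decr1, the mitochondrial 2,4-dienoyl-CoA reductase, overlapped between groups (log2 -0.23, adjusted p = 0.112), and without Pparg ldi/+ array 2 it passed at -0.33. Acot2, a mitochondrial thioesterase that frees fatty acids from coenzyme A, overlapped too (log2 -0.40, adjusted p = 0.0722), and without wild-type array 2 it passed at -0.52. Acot2 has close paralogues whose transcripts the probes may share.

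**Figure D2:**
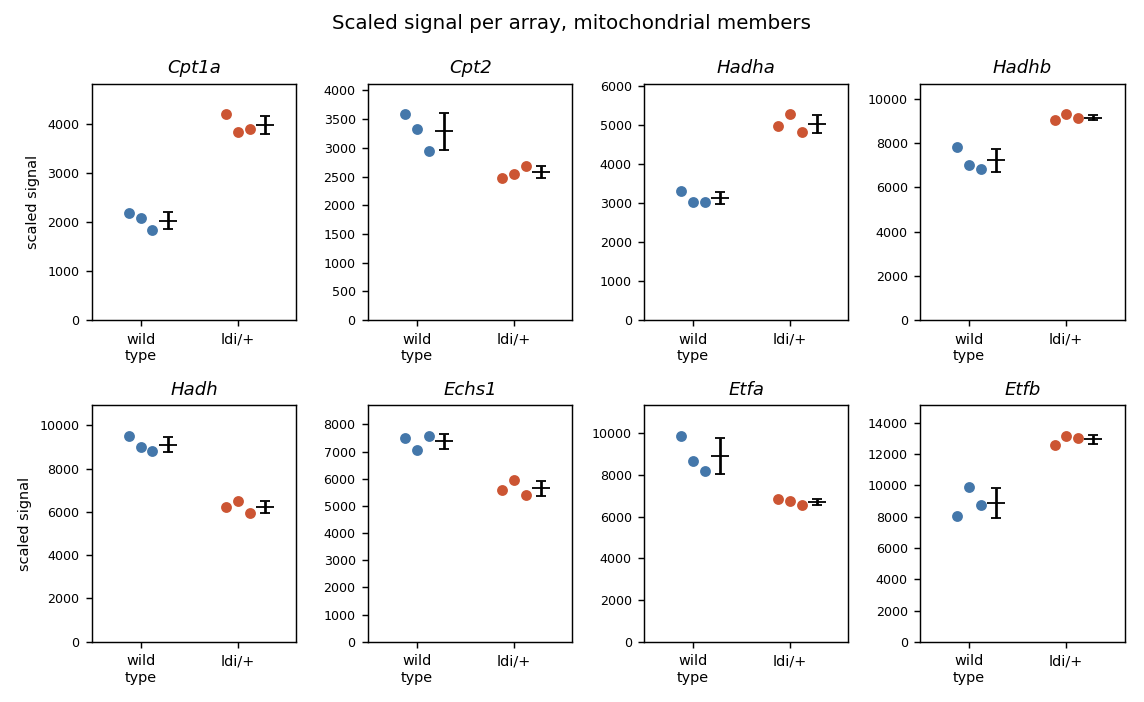
Scaled signal of 8 mitochondrial members in each array (dots; blue, wild type; orange, Pparg ldi/+), with the mean and SD of the 3 arrays beside them as a bar; each panel starts at 0 and has its own scale. Cpt1a, Hadha, Hadhb and Etfb are higher in all 3 Pparg ldi/+ arrays, and Cpt2, Hadh, Echs1 and Etfa are lower in all 3.

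Ratios within an array show unequal change and do not depend on how the arrays were scaled, apart from the offset of 32 added before log2. In 11 pairs of members the log2 ratio was compared by an exact two-sided permutation test, whose smallest p for 3 against 3 arrays is 0.1. The groups did not overlap in 8 pairs, each with an exact permutation p = 0.1 (0.138 after adjustment over the 11), so no pair can pass here. The share of such pairs among genes in general was not computed. Of single tested genes 47.6% did not overlap, but that share is not one of ratios. Whether the count of pairs sets the members apart was not tested. The ratio of Cpt1a to Cpt2 was 1.31 log2 units higher in Pparg ldi/+, with an SD of 0.02 among the controls and 0.11 among the mutants. That of Hadh to Hadha was 1.22 lower (change -1.22, SDs 0.02 and 0.01), and that of Etfa to Etfb changed by -0.95. Within the trifunctional protein, Hadha over Hadhb changed by 0.33. Acadm over Acadl changed by -0.45 and Acadvl over Acads by 0.46, while Decr1 over Decr2, Eci1 over Eci2 and Acaa2 over Acaa1a overlapped (-0.34, -0.07 and 0.01). When probe sets were averaged per gene, Acadm over Acadl was at -0.06 and Hadha over Hadhb at 0.53. Those averages give full weight to a dim set of Acadl at -0.63 and a dim set of Hadhb at -0.05.

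**Figure D3:**
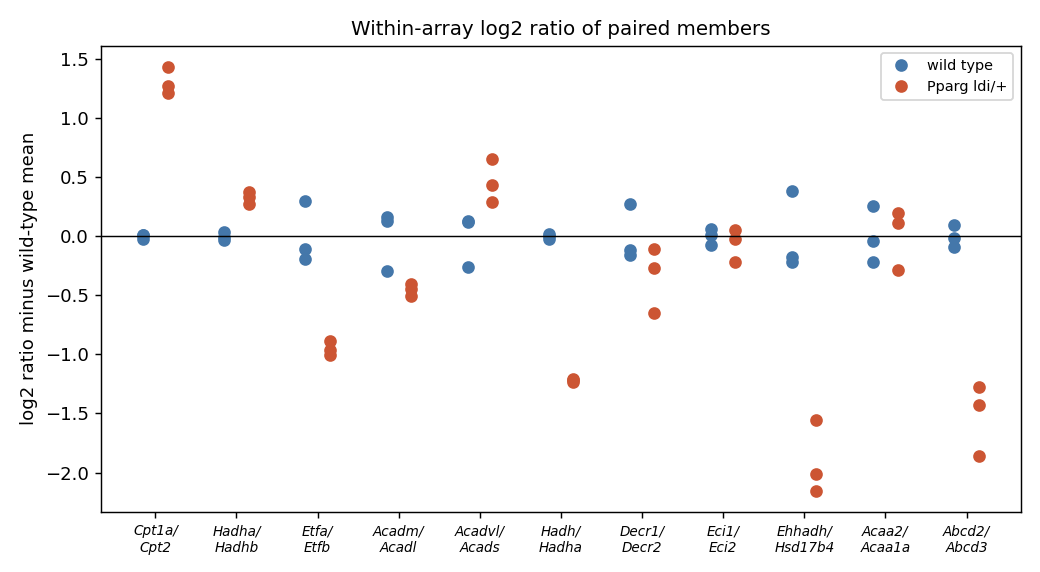
Log2 ratio of 11 pairs of members within each array (dots; blue, wild type; orange, Pparg ldi/+), minus the wild-type mean of the pair. The Pparg ldi/+ arrays lie apart from the wild-type arrays in 8 pairs, farthest for Ehhadh over Hsd17b4 (-1.91) and Abcd2 over Abcd3 (-1.53).

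Among the 9 peroxisomal enzymes and transporters, Abcd2 and Ehhadh differed most between the groups. Abcd2 encodes an ABC transporter of the peroxisomal membrane that takes up very long-chain acyl-CoA. It was at 3140, 3475 and 2216 in Pparg ldi/+ and at 8344, 8776 and 9071 in wild type, so the highest mutant value was far below the lowest control. It fell 2.99-fold (log2 -1.58, interval -1.92 to -1.25, adjusted p = 8.87e-05), and its 3 other probe sets differed by -1.73, -1 and -0.89. Abcd3, another ABC transporter of this membrane, was at 2695, 2686 and 2575 against 2653, 2956 and 2680. Its groups overlapped, and the interval of its log2 difference ran from -0.23 to 0.12. The change of Abcd2 over Abcd3 within arrays was -1.53.

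Ehhadh and Hsd17b4 encode the L- and D-bifunctional proteins, each of which hydrates the enoyl-CoA and dehydrogenates the product. Ehhadh was at 299, 408 and 254 in Pparg ldi/+ and at 892, 776 and 951 in wild type. It fell 2.60-fold (log2 -1.38, interval -1.76 to -0.996, adjusted p = 0.000389). Hsd17b4 was at 7693, 7433 and 7273 against 5992, 5348 and 4315, and rose 1.44-fold (log2 0.53, interval 0.27 to 0.78, adjusted p = 0.00725). Both genes were without overlap between groups, in opposite directions, and the ratio of Ehhadh to Hsd17b4 changed by -1.91. A cross-hybridising probe set of Hsd17b4 differed by 0.33. Eci2, an enoyl-CoA isomerase of peroxisomes that is also found in mitochondria, was at 2012, 2073 and 1889 against 2634, 2508 and 2689 and fell 1.31-fold (log2 -0.39, adjusted p = 0.0047).

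The other peroxisomal members overlapped between groups. Acox3, an oxidase that starts the cycle on branched chains, had a log2 difference of 0.18 (interval -0.19 to 0.55) and Decr2, the peroxisomal dienoyl-CoA reductase, 0.11 (-0.22 to 0.45). The thiolase gene Acaa1a was at -0.17 and Scp2, which encodes a sterol carrier protein and a thiolase, at -0.05. Acaa1a had only cross-hybridising probe sets and a near-identical paralogue, Acaa1b, whose own probe set fell 2.65-fold (log2 -1.41, adjusted p = 0.000194), so the value of Acaa1a is uncertain. All 3 other probe sets of Scp2 differed by at most 0.07.

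Of the 14 Pex genes, most of which build peroxisomes or import their proteins, 3 fell, 1 rose and 10 did not pass. The share called was 28.6%, against 32.7% of all tested genes, and the median was -0.17. That share includes Pex5l, the gene that rose, which was tested only through its Pparg ldi/+ values. Pex3, a membrane receptor with which new peroxisomal membrane proteins are inserted, was at 1170, 1128 and 1235 in Pparg ldi/+ and at 1806, 2085 and 1710 in wild type. It fell 1.57-fold (log2 -0.65, interval -0.87 to -0.43, adjusted p = 0.00117), and its other probe set differed by -0.80. Pex19, the soluble partner of Pex3, was at 2716, 2708 and 2794 against 3447, 3528 and 3088 and fell 1.22-fold (log2 -0.29, adjusted p = 0.0204). Pex6, an ATPase that recycles the import receptor, was at 1020, 1002 and 1115 against 1498, 1133 and 1464 and fell 1.29-fold (log2 -0.37, adjusted p = 0.0458). In all 3 every mutant lay below every control. The calls of Pex19 and Pex6 were near the threshold. Pex19 lost its call without any 1 of the 3 Pparg ldi/+ arrays (-0.28, -0.28 and -0.30) or without wild-type array 1 (-0.27) or 2 (-0.25). Pex6 lost it without any 1 of those 3 (-0.35, -0.34 and -0.41) or without wild-type array 1 (-0.29) or 3 (-0.31). When probe sets were averaged, Pex6 was at -0.20 (adjusted p = 0.273) and Pex19 at -0.23 (adjusted p = 0.0738), and neither passed. The sets of each disagreed in sign, from -0.39 to 0.14 for Pex6 and from -0.44 to 0.03 for Pex19. Pex19 also missed the threshold with the replicate number as a block (-0.29, adjusted p = 0.0521), without a variance trend (adjusted p = 0.0504) and with unscaled values (-0.23, adjusted p = 0.198), and Pex6 without a filter (adjusted p = 0.0661), without a trend (0.0696) and with unscaled values (-0.30, adjusted p = 0.131). The count of Pex genes that fell was then 1 without any 1 Pparg ldi/+ array or wild-type array 1.

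Pex5l, the fourth gene called, encodes a relative of the import receptor that is best known as a partner of neuronal HCN channels. It was at 581, 584 and 615 in Pparg ldi/+ and at 38.4, 93.3 and 184 in wild type. All 3 mutant values were above the highest control, and the fitted log2 difference was 2.33 (interval 1.54 to 3.13, adjusted p = 0.00114). Its mean log2 signal in wild type, 6.95, was under the filter, so it was tested only through the group where it was high; with no filter its adjusted p was 0.00295. How far the wild-type values lie above background is not known, no fold is given, and the log2 difference moved with the offset, from 1.82 with 100 added to 2.77 with a floor of 32. Its other probe sets differed by 1.18, 0.34 and 0.13. Without Pparg ldi/+ array 1 the probe set at 1.18 became the brightest, and the log2 difference was 1.26.

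For the other 10 Pex genes the adjusted p was above 0.05. The matrix protein receptors Pex5 and Pex7 were at -0.29 and -0.01, and Pex5 passed without wild-type array 3 (-0.35). The docking proteins Pex13 and Pex14 were at 0.00 and -0.19, and the ubiquitin ligase genes Pex2 and Pex10 at 0.05 and 0.10. Pex26, the membrane anchor of Pex6, was at -0.14, and Pex16, of membrane assembly, at -0.23. The genes of peroxisome division Pex11a and Pex11g were at 0.10 and -0.30. When the probe sets of each gene were averaged, Pex2 (0.27) and Pex16 (-0.32) passed as well.

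**Figure D4:**
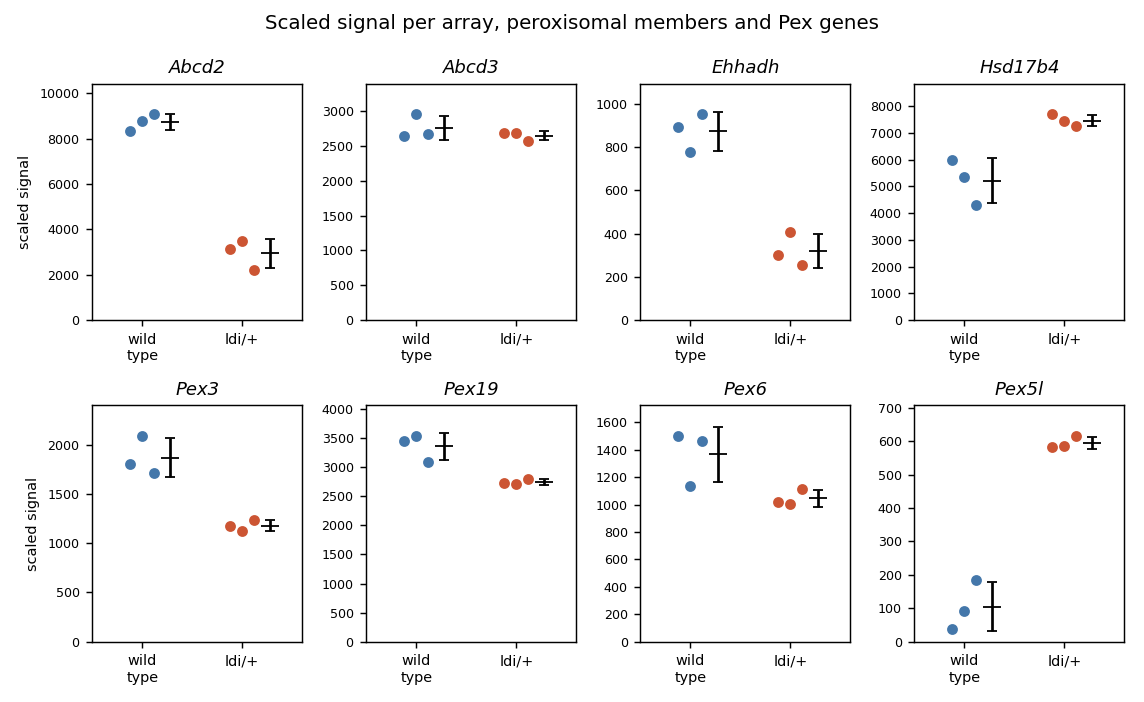
Scaled signal of 4 peroxisomal members (top) and the 4 called Pex genes (bottom) in each array (dots; blue, wild type; orange, Pparg ldi/+), with the mean and SD of the 3 arrays beside them; each panel starts at 0 and has its own scale. The groups overlap only for Abcd3 among these 8 genes.

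**Figure D5:**
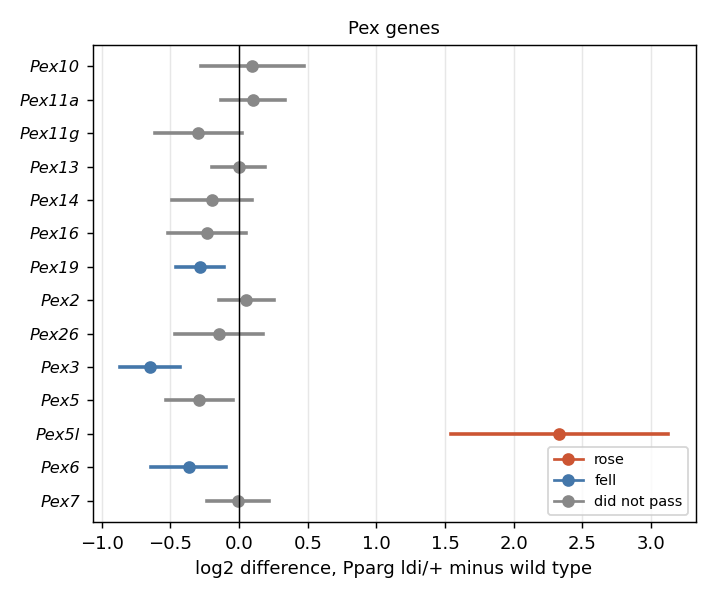
Log2 difference of the 14 Pex genes, Pparg ldi/+ minus wild type, with the 95% confidence interval from limma as a line (3 arrays per group). Pex5l at 2.33 stands far to the right, and the others lie between -0.65 and 0.10.

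Promoters of 33 of the 41 members were matched in RefSeq (GRCm38.p6), 37 windows of 250 bases before to 50 after a start. The DR1 element to which PPAR and RXR are known to bind is a direct repeat of AGGTCA spaced by 1 base. It was searched on both strands as such, and with any base at the fourth letter of each copy, and was found in none (0) of the members' windows. It is rare in all 32851 windows, at 0.0396% and 0.381%. These letters are not in these windows, and sites farther away were not searched. A lone AGGTCA, which the exact repeat also holds, was in 6 of the 37 windows (16.2%) and in 16.3% of all. Of the called members, Cpt1a, which rose, and Echs1, which fell, hold it, and the 250 bases before their starts are printed. Acadm, Acadvl, Scp2 and Pex11g, which were not called, hold it too. Whether these letters bear on the changes was not tested. Capitals mark AGGTCA or its complement TGACCT. The Cpt1a stretch is chr19:3323051-3323300 on the plus strand and the Echs1 stretch is chr7:140116422-140116671 on the minus strand.
Cpt1a: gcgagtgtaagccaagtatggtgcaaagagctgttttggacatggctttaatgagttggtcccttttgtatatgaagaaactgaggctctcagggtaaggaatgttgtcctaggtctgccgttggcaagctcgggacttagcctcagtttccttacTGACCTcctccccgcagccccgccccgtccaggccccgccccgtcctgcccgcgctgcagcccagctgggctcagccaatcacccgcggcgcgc
Echs1: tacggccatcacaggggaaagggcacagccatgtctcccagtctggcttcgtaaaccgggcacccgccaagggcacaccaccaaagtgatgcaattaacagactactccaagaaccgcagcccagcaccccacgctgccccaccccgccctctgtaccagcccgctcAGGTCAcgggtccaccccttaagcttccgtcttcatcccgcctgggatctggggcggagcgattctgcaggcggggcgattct
The match is 94 bases before the start of Cpt1a and 83 before that of Echs1, counted from the first base of the match. Of all windows of these 250 bases, 14.0% hold it.

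Of 61 tested genes of the pathway that are not members, 22 fell and 4 rose, 26 called in all (42.6%, against 32.7% of all tested genes), with a median of -0.24. Among 23 tested peroxisomal genes 8 fell and 1 rose (39.1% called, near the share over all genes). Pxmp2, a pore protein of the peroxisomal membrane, was at 509, 360 and 433 in Pparg ldi/+ against 1795, 1627 and 1832 and fell 3.86-fold (adjusted p = 1.4e-05). Phyh, which starts the alpha-oxidation of phytanic acid, fell 2.40-fold (adjusted p = 8.18e-06), and Gnpat, the first enzyme of ether lipid synthesis, fell 2.01-fold (adjusted p = 4.3e-05). Both were lower in every mutant than in any control. The gene that rose was Acot8, a thioesterase (log2 0.49).

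Among 19 tested mitochondrial genes 8 fell and 2 rose (52.6% called). Acad11, an acyl-CoA dehydrogenase, was at 1244, 1202 and 1490 against 4887, 4158 and 4716 and fell 3.44-fold (adjusted p = 8.18e-06). Ivd, the isovaleryl-CoA dehydrogenase of leucine breakdown, fell 2.12-fold (adjusted p = 9.82e-05). Slc25a20 and the acetyl-CoA synthetase gene Acss1 rose (log2 0.37 and 0.45). Of 2 tested ketone body genes, Oxct1, which activates ketone bodies, fell 1.57-fold (adjusted p = 0.00136).

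Among 17 tested regulators 5 fell and 1 rose (35.3% called, near the share over all genes). Nrip1, a corepressor of nuclear receptors, was at 1145, 1594 and 1223 against 3601, 3948 and 4186 and fell 2.94-fold (adjusted p = 4.22e-05). Rxra, the partner receptor of the PPARs, fell 1.88-fold (adjusted p = 0.000158), and Ppard fell 1.34-fold (adjusted p = 0.0357). Lpin1 and the kinase gene Prkaa2 fell as well (log2 -0.53 and -0.62), and the coactivator gene Pprc1 rose (log2 0.35). Ppara, the receptor best known for driving fatty acid oxidation in liver, was too dim on average to be tested. It was at 42.8, 86.1 and 83.7 in Pparg ldi/+ and 264, 246 and 278 in wild type. Ppargc1a, a coactivator of mitochondrial biogenesis, overlapped between groups (log2 0.14).

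Pparg ldi/+ array 3, whose epididymal marker sum was in the wild-type range, was compared alone with the 3 wild-type arrays. The lone array is then assumed to vary like the other group. The median of the mitochondrial members was then -0.28, and the values were 0.94 for Cpt1a, 0.62 for Hadha, 0.56 for Etfb and -0.61 for Hadh, all past the threshold. Abcd2 (-1.96) and Ehhadh (-1.66) also passed. Called members that did not pass there were Hadhb (0.34), Cpt2 (-0.28), Crat (-0.36), Etfa (-0.44), Hsd17b4 (0.49) and Eci2 (-0.46). Of the called Pex genes Pex3 (-0.58), Pex19 (-0.26) and Pex6 (-0.27) did not pass either.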

How the data were processed

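Deposited values were linear signal intensities per probe set. MAS5 is named for 2 of the 6 samples in the submitters' processing notes, without a scaling target or detection calls. The trimmed mean of the deposited intensities was 201 to 236. Each array was scaled to a trimmed mean of 500 (2% off each end), 32 was added and log2 taken, which understates changes of dim genes. Genes with a mean under log2 7.46, the median over probe sets, were not tested. Symbols come from the platform annotation, updated through RefSeq. The test was limma (3.58.1, R 4.3.3; eBayes with trend, two-sided, no covariates, Benjamini-Hochberg over 11201 genes). The fit was also run on simulated data, and the outcome is not given here.

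Members, lists and alternatives were chosen with earlier results of these data known. Every member is named; members called with a fold of at least 1.5, fixed pairs and called Pex genes are given array by array, and other pathway genes from a fold of 2. A few more values were added after they were seen. Alternatives changed the offset (16, 100 or a floor), the scaling, the filter, the variance model, array weights, the probe set rule, the threshold, the replicate number as a block, the place of Eci2 and the arrays used. A planned comparison of protein sequences was not made.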

Additional observations from a re-analysis of the deposited data

How the results depend on the processing

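Of the 19 called members, 9 (Abcd2, Cpt1a, Echs1, Eci1, Ehhadh, Etfb, Hadh, Hadha and Pex5l) kept their call in every alternative that tested them, 10 lost it in at least 1, and none (0) changed direction. Pex5l, which passed the filter only through its Pparg ldi/+ values, was tested in 17 of 19 alternatives. Without Pparg ldi/+ array 1, and with Pparg ldi/+ array 3 alone, Pex5l was read from another probe set. Of the 22 members not called, 6 passed in at least 1 alternative. At a threshold of 0.01, 1085 genes rose and 1153 fell over all genes, 4 mitochondrial members and 1 Pex gene fell and 1 other pathway gene rose. With Pparg ldi/+ array 3 alone, where fewer samples are compared, 730 genes rose and 886 fell, 4 mitochondrial members fell, and by limma no (0) peroxisomal member rose, no (0) other pathway gene rose and no (0) Pex gene fell (at an unadjusted p under 0.05, 1, 2 and 1). With unscaled values 1 Pex gene fell, and without a variance trend 1 did; among the brighter 30% of probe sets none (0) rose by limma, also at an unadjusted p, because Pex5l was not tested there. Leaving out each array in turn gave 4 to 8 falls among mitochondrial members (4 without wild-type array 1), 1 to 3 among Pex genes and 1 to 4 rises among other pathway genes (2 without Pparg ldi/+ array 1, 1 without array 2). Counting Eci2 as mitochondrial kept every count within 1.5 times. The numbers in the titles gave no sign of pairing: deviations of same-numbered arrays correlated at -0.13, -0.09 and -0.09, and 0 of 6 arrays correlated best with their own number. With so few arrays this check is weak. It does not bear on litters, which the fit did not include although the controls were litter-matched. With the replicate number as a block 1568 genes rose and 1598 fell, and 2 other pathway genes rose; of the members Pex19 alone lost its call. Without detection calls, how far a dim signal lies above background is not known. The cause of these changes was not tested unless stated.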

Other observations

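Some genes of propionyl-CoA and branched-chain breakdown fell in Pparg ldi/+ fat and others did not pass. These were picked after their values were seen. Pccb, a subunit of propionyl-CoA carboxylase, fell by 0.52 on the log2 scale (limma adjusted p = 0.0017), and Mcee, the methylmalonyl-CoA epimerase, by 0.78 (adjusted p = 0.000568). Pcca at -0.13 and Mmut at -0.13, of the same route, did not pass, nor did Acad8 at -0.05, a branched-chain dehydrogenase. Hibadh, of valine breakdown, fell by 0.73 on the log2 scale (adjusted p = 0.00012), and Acadsb, the dehydrogenase for short branched chains, by 0.59 (adjusted p = 0.00929). Cat, the catalase that removes the hydrogen peroxide of peroxisomal oxidation, was at 8341, 8425 and 8196 in Pparg ldi/+ and at 12583, 12660 and 11828 in wild type, and fell 1.48-fold (adjusted p = 0.000188).

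Slc27a2, an acyl-CoA synthetase found in peroxisomes, was too dim on average to be tested and was higher in each Pparg ldi/+ array (355, 313 and 208) than in any wild-type array (14.96, 56.1 and 151). Adat2, whose RefSeq locus overlaps the edge of that of Pex3, had a log2 difference of 0.00 (95% confidence interval -0.32 to 0.31), where Pex3 was at -0.65. The difference between these neighbours was not tested.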
